A study of Rattus norvegicus with 20 samples.

Results

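One gene, ENSRNOG00000011824, was followed across the 4 groups of the series. It is 1 of the 32883 Ensembl rat gene IDs in the deposited count table. It was chosen by its log2 fold change after preconditioning, which earlier results of these data had placed first in both regions, so that rise is described here with no test. The table gives IDs without gene names, and 0 of its IDs matched the RefSeq gene table of the GRCr8 assembly, so the gene is called by its ID, and no symbol, function, position or sequence is given for it.

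The animals were wild-type Wistar rats aged 3 months. Dorsal control and ventral control libraries came from animals whose treatment is recorded as control with no further detail. Dorsal preconditioning and ventral preconditioning libraries came from animals sampled 24 hours after the preconditioning protocol, which the title of the series describes as acute seizures evoked by electrical stimulation of the perforant pathway. Each group held 5 libraries of poly(A) RNA from laser-microdissected tissue, and the labels do not say whether libraries came from separate animals, so the tests measure the spread between these libraries.

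The subiculum is the main output region of the hippocampus. It receives fibres from CA1 and, through the perforant pathway, directly from the entorhinal cortex. The dorsal part is mainly connected with cortical areas that serve spatial processing and the ventral part with the hypothalamus, amygdala and other areas that serve stress and emotion. Seizures are known to change the transcription of many neuronal genes, some within minutes and others, among them genes of secreted peptides and growth factors, over hours to days.

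Library totals ranged from 3087146 to 20463678 counts, and the totals of the groups overlapped. Levels are given as CPM, counts scaled to a common library size after TMM normalization over all 20 libraries. A count of 3, taken as the floor below which a level is not resolved, corresponded to between 0.146 and 0.916 CPM. In earlier results of these data, dorsal control 4, ventral control 2 and dorsal preconditioning 2 had stood apart from their groups and ventral control 4 had lain toward the dorsal libraries, so each comparison was also made without these 4 libraries. The labelled tissue was not checked against marker genes, since no ID has a name here. In bulk tissue, a change in the number of cells that carry a transcript and a change in its amount per cell cannot be told apart.

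ENSRNOG00000011824 was barely detected in control tissue. The dorsal controls 1 to 5 held 24, 3, 15, 5 and 2 counts of it, which gave 1.24, 0.398, 1.08, 0.530 and 0.127 CPM. Dorsal controls 2 and 5 were therefore at or under the floor. The ventral controls 1 to 5 held 2, 9, 14, 22 and 11 counts, or 0.611, 0.909, 2.20, 1.07 and 0.944 CPM, and ventral control 1 was under its floor. The control groups overlapped, since dorsal controls 1 and 3 lay above 4 of the 5 ventral controls. The mean of the dorsal controls was 0.674 ± 0.469 CPM, and that of the ventral controls 1.15 ± 0.612 CPM (SD over 5 libraries).

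After preconditioning the gene was abundant in every library of both regions. The dorsal preconditioning libraries 1 to 5 held 522, 450, 449, 350 and 591 counts, or 46.4, 35.4, 64.7, 22.8 and 48.8 CPM. The lowest of them stood well above the highest control of either region, ventral control 3 at 2.20 CPM. The ventral preconditioning libraries 1 to 5 held 3847, 2627, 2715, 2202 and 5610 counts, or 414, 164, 304, 275 and 307 CPM. All 5 lay above every dorsal library. The dorsal mean was 43.6 ± 15.7 CPM, and the ventral mean 293 ± 89.3 CPM (SD over 5 libraries). From the lowest mean to the highest, the order was thus dorsal control, ventral control, dorsal preconditioning and ventral preconditioning, and the first and second of these were the only neighbours whose ranges overlapped.

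**Figure D1:**
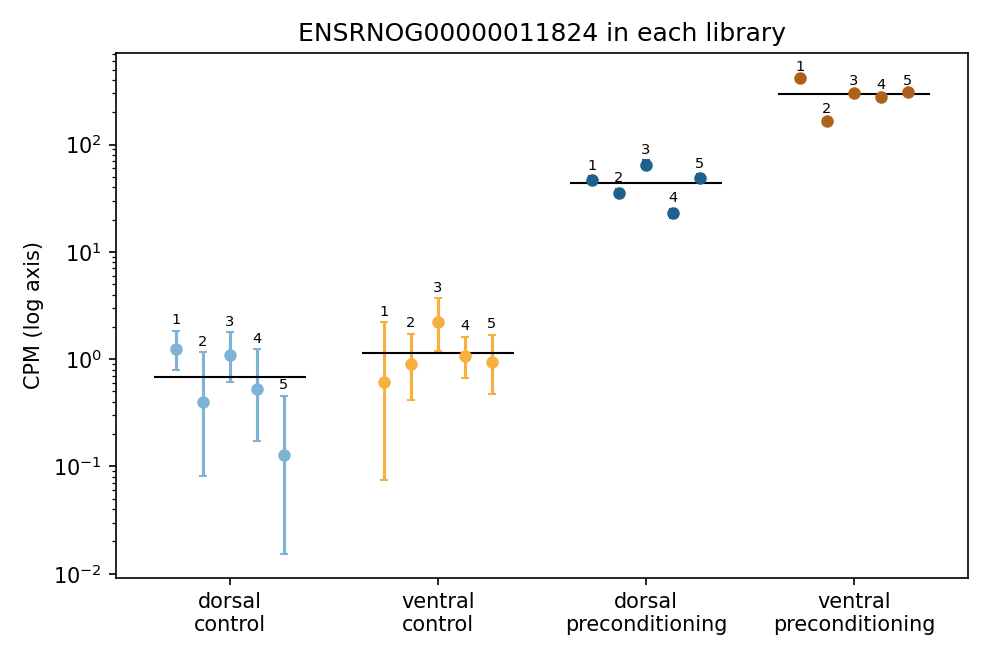
CPM of ENSRNOG00000011824 on a log axis for the 20 libraries in their 4 groups, with the replicate number above each point. Vertical bars are exact Poisson 95% intervals of the count, which cover counting error only, and horizontal lines are group means; the 10 controls lie at or below 2.20 CPM, the dorsal preconditioning libraries between 22.8 and 64.7 and the ventral ones between 164 and 414.

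The precision of these levels differed between the conditions. With 2 to 24 counts a library, the exact Poisson 95% interval of dorsal control 5 ran from 0.0153 to 0.458 CPM and that of dorsal control 1 from 0.792 to 1.84 CPM. Counting alone at these depths would give a coefficient of variation of 35.5% among dorsal and 34.9% among ventral controls, against 69.5% and 53.4% observed. After preconditioning counting error was small. It would give 4.59% in the dorsal and 1.78% in the ventral region, against 35.9% and 30.5% observed, so nearly all of the spread among treated libraries lay beyond counting error. The highest treated library was 2.84 times the lowest in the dorsal and 2.52 times the lowest in the ventral region. In the dorsal region the highest level, 64.7 CPM, was in the smallest library of its group (6811740 counts) and the lowest, 22.8 CPM, in the largest (15070017 counts). In the ventral region the largest library (19291639 counts) had 307 CPM, near the middle of its group. The part of library size in this spread was not tested.

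In the dorsal subiculum the log2 fold change after preconditioning, fitted with edgeR, was 5.88 (SE 0.41), a 59.0-fold rise with a 95% interval of 32.2 to 108.1. The interval, here and for the ventral rise below, makes no allowance for the choice of the gene by this rise. The ratio of the group mean CPM was 64.7. It was the largest log2 fold change among all 13647 genes tested there, as the way the gene was chosen requires. The call rule, an adjusted p under 0.05, was met with a higher level by 0.213% of these genes, and 1.05% had group ranges that did not overlap and were higher after preconditioning. The next gene in order, among genes called with a mean count of at least 20, was ENSRNOG00000024028 at a log2 fold change of 4.39 (SE 0.64). That gene measured 0.103, 0.265, 0.361, 0.318 and 0 CPM in dorsal controls 1 to 5 and 5.16, 1.02, 8.07, 3.19 and 3.72 CPM in dorsal preconditioning libraries 1 to 5. Its groups did not overlap either. Without dorsal control 4 and dorsal preconditioning 2, the log2 fold change of ENSRNOG00000011824 was 5.87.

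In the ventral subiculum the log2 fold change was 8.00 (SE 0.30), a 255.9-fold rise with a 95% interval of 163.7 to 399.9. The ratio of the group mean CPM was 255.6. Without ventral controls 2 and 4 the log2 fold change was 7.82. It was again the largest of all genes tested, here 13291, of which 2.93% were called higher and 3.9% had higher, non-overlapping ranges. The next gene in order, by the same rule as in the dorsal region, was ENSRNOG00000033672 at a log2 fold change of 6.18 (SE 0.63). It had 1, 0, 2, 1 and 0 counts in ventral controls 1 to 5. It reached 7.64, 3.43, 8.30, 10.5 and 3.50 CPM in ventral preconditioning libraries 1 to 5. Since each of its controls held at most 2 counts, a lower bound of 15.9-fold is also given, against a floor of 3 counts in each control library (mean 0.419 CPM). This bound is not on the scale of the fitted rise of ENSRNOG00000011824. In dorsal tissue this second gene measured 0.787 ± 0.371 CPM after preconditioning (SD, n = 5). The control levels of both next genes rested on 5 counts or fewer a library.

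Whether the regions differed was not used to choose ENSRNOG00000011824, and it was tested first after preconditioning. The level was 6.70-fold higher in the ventral than in the dorsal subiculum, with a log2 difference of 2.75 (SE 0.26, 95% interval 2.18 to 3.31, adjusted p = 4.33e-06 in edgeR's quasi-likelihood test with Benjamini-Hochberg adjustment over 13640 genes). The difference was thus larger than the spread between libraries. All 5 ventral libraries lay above all 5 dorsal ones, and the exact two-sided permutation test of log2 CPM gave p = 0.00794, the smallest that 5 against 5 unpaired libraries allow. Both tests take the libraries as unpaired, although deviations of same-numbered preconditioned libraries correlated positively across genes (0.0376 to 0.368). Regional differences were common in these libraries: 12% of all genes tested were called higher in the ventral region after preconditioning, and 8.98% had higher, non-overlapping ventral ranges. Ordered by signed log2 difference, from the most ventral-higher down, the gene stood in place 62 of all genes tested. Genes higher in the dorsal region come last in that order, whatever the size of their difference. Without dorsal preconditioning 2 the log2 difference was 2.68 (edgeR adjusted p = 1.34e-05).

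Dorsal and ventral libraries carry the same replicate numbers, although the labels do not state what a number shares. Taken by number, the ventral level was 8.91, 4.64, 4.71, 12.1 and 6.29 times the dorsal one in preconditioning numbers 1 to 5. It was higher in 5 of 5 numbers. The order of the libraries was not the same in the regions: number 3 was the highest dorsal and number 1 the highest ventral library, and number 4 was the lowest dorsal and number 2 the lowest ventral one. Among controls the ratios were 0.494, 2.29, 2.03, 2.01 and 7.45, with the ventral library higher in 4 of 5 numbers. Control numbers 1, 2 and 5 each include a library at or under the floor of 3 counts, so these ratios are uncertain.

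**Figure D2:**
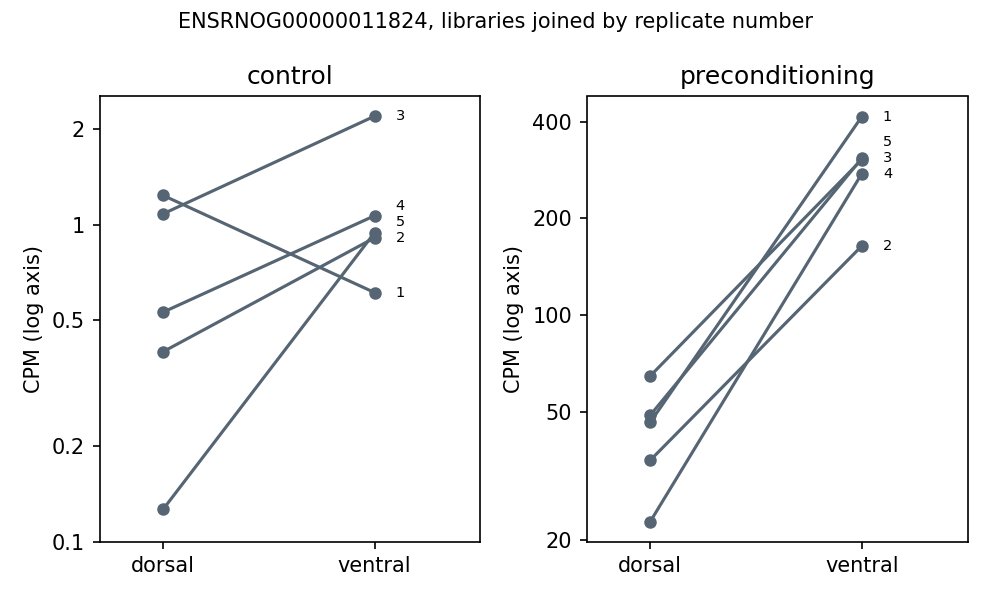
CPM of ENSRNOG00000011824 in dorsal and ventral libraries joined by replicate number, controls on the left and preconditioning on the right, each panel with its own log axis. All 5 lines rise from dorsal to ventral after preconditioning, by 4.64 to 12.1 times, while 1 of the 5 control lines falls. Control lines 1, 2 and 5 each include a library at or under the floor of 3 counts.

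In controls the regional difference was not called. The log2 difference, ventral minus dorsal, was 0.68 (SE 0.51, edgeR adjusted p = 0.355 over 13509 genes), where 11.2% of genes were called higher in the ventral region. Its 95% interval, from -0.41 to 1.76, corresponds to a ventral level between 0.755 and 3.39 times the dorsal one. The exact two-sided permutation test gave p = 0.183 for a difference of 1.02 in mean log2 CPM. Both tests take the libraries as unpaired, although same-numbered controls deviated together across genes. With the replicate number as a block in the fit, the log2 difference was 0.96 (edgeR adjusted p = 0.111). These levels rest on 49 counts in all 5 dorsal and 58 in all 5 ventral controls, and the interval is wide. Without dorsal control 4, ventral control 2 and ventral control 4, the log2 difference was 0.77 (edgeR adjusted p = 0.413).

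The difference between the fold rises of the regions was estimated as an interaction over all 20 libraries. The ventral log2 rise exceeded the dorsal one by 2.13 (SE 0.62, 95% interval 0.84 to 3.41 before adjustment). The unadjusted p was 0.00233, and the adjusted p was 0.316 in edgeR over 14087 genes, so the difference was not called. Of all genes, 0.071% were called with a more positive ventral response, and 6.73% had an unadjusted p under 0.05 in either direction. Ordered by signed estimate, from the most positive ventral response down, the gene was in place 13. The contrast of a called regional difference after preconditioning with an uncalled one in controls therefore does not show that the fold rises differed. In absolute terms the mean level rose by 43.0 CPM for dorsal and 292 CPM for ventral tissue, but the fold estimate also carries the error of the scarcely detected controls. Leaving out dorsal control 1 gave 1.70 and leaving out dorsal control 5 gave 2.44, and neither was called. The main interaction fit takes the libraries as unpaired. With the replicate number as a block the estimate was 1.81 (edgeR adjusted p = 0.169), also not called. Without all 4 libraries named above as standing apart, the estimate was 1.96 (edgeR adjusted p = 0.533).

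**Figure D3:**
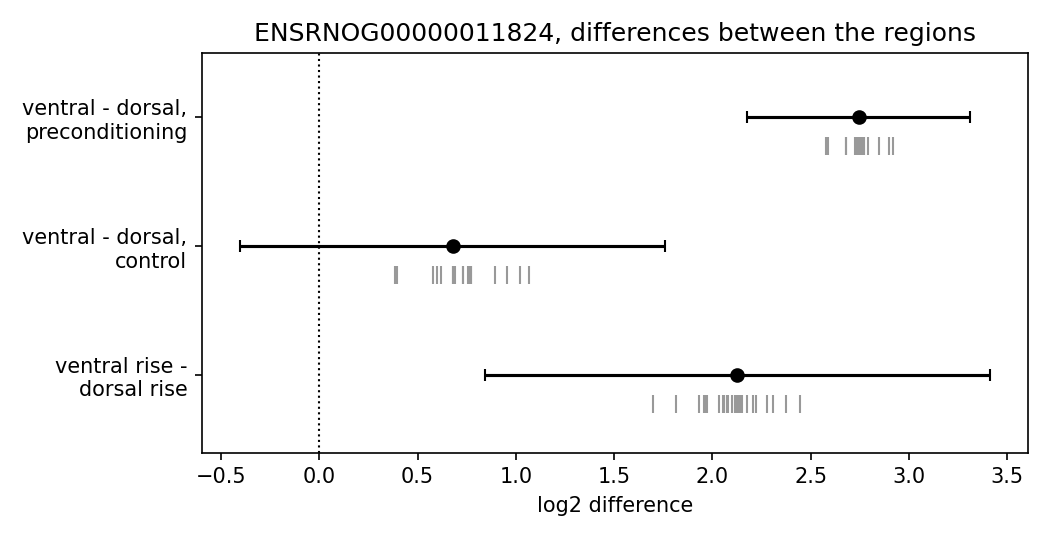
Log2 differences between the regions for ENSRNOG00000011824 after preconditioning, in controls and between the rises. Black points and bars are the edgeR estimates with 95% intervals before adjustment, and grey ticks are the estimates under the alternative settings; the interval after preconditioning runs from 2.18 to 3.31, and that of the controls, -0.41 to 1.76, includes 0.

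Genes with a similar pattern were sought by scaling the log2 CPM of each of 14087 genes over the 20 libraries to mean 0 and SD 1 and taking the root mean square difference from ENSRNOG00000011824. This measure keeps the shape of a profile and drops its level and the size of its change. It rests largely on the same treatment contrast that chose the gene, so it is a description. The nearest gene was ENSRNOG00000013552, at a difference of 0.182, with the fifth nearest at 0.350 and a median of 1.40 over all genes. The control means of ENSRNOG00000013552 were 18.7 ± 1.42 CPM for dorsal and 19.8 ± 2.67 CPM for ventral libraries (SD over 5 libraries, here and next). After preconditioning the dorsal mean was 38.5 ± 5.69 CPM, and the ventral mean 62.0 ± 6.78 CPM. Its log2 fold changes were 1.03 (SE 0.12) and 1.63 (SE 0.12), so it shared the order of the groups, with a much smaller rise from a well detected control level. Its libraries ran from 16.5 to 22.1 CPM in controls, from 32.4 to 44.9 CPM in dorsal and from 56.0 to 71.6 CPM in ventral preconditioning.

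**Figure D4:**
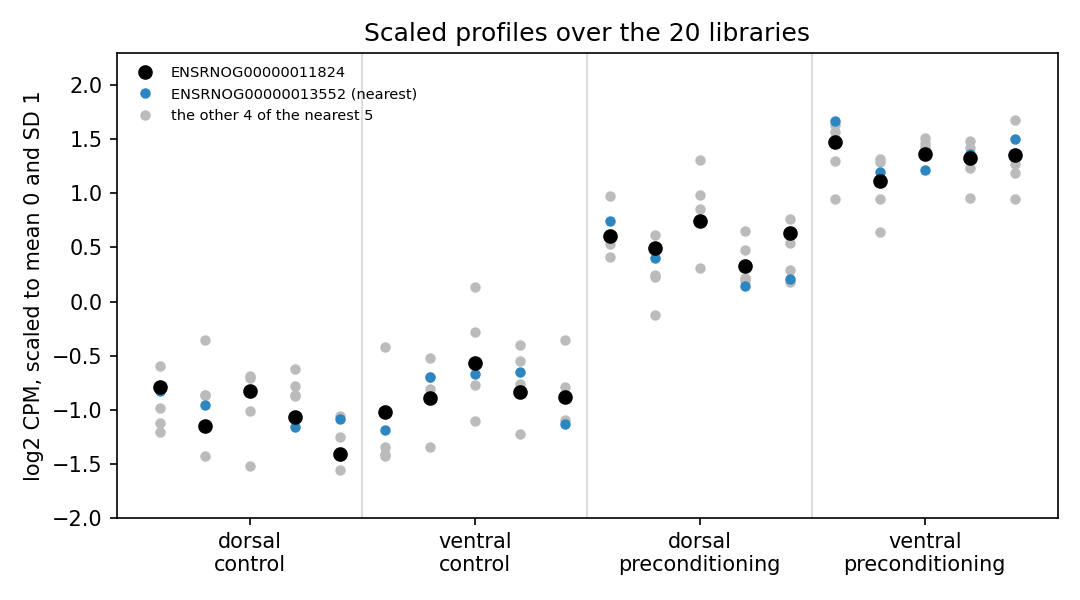
Log2 CPM scaled to mean 0 and SD 1 over the 20 libraries, for ENSRNOG00000011824 (black) and the 5 genes with the nearest profiles (blue for the nearest, ENSRNOG00000013552, and grey for the others), with replicates 1 to 5 from left to right within a group. The root mean square differences from the black points run from 0.182 to 0.350.

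ENSRNOG00000024028, the next gene in order of the dorsal rise, was the fifth of the 5 nearest. Its mean after preconditioning was 6.88 ± 2.88 CPM for ventral and 4.23 ± 2.61 CPM for dorsal libraries (SD over 5 libraries). With a prior count of 0.5 in place of 2, 3 of the 5 were among the nearest 5, and all were within the first 7. Over the 10 dorsal libraries alone, 3 of the 5 were among the nearest 5, and over the 10 ventral libraries 2 were. The best placed of the 5 stood only in place 2 over the ventral libraries, so ENSRNOG00000013552 was not the nearest gene there. In each of these regional settings 4 of the 5 were among the nearest 50 of 14087 genes, and the farthest was in place 52.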

How the data were processed

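The authors deposited 1 table of raw counts per gene, whole numbers with no normalization and 1 column per library. The submitters' processing notes name STAR, DESeq2 and the build Rnor_5.0; their roles, the counting tool, the annotation and the use of strand are not given in the sources used here, so reads shared with similar or overlapping genes may have been split or dropped. The library kit was stranded, per the labels' protocols. Columns were matched to sample titles. The 10 treated columns start with an e and their titles with a p; they were matched by number and region letter, which assumes that both letters mean the same treatment; 0 columns were left unmatched.

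Tests across genes used edgeR 4.0.16 under R 4.3.3 (filterByExpr, TMM, glmQLFit with robust=TRUE, glmQLFTest, Benjamini-Hochberg over all genes, threshold 0.05), on the 10 libraries of a comparison or, for the interaction, all 20. The standard error was the log2 fold change divided by the square root of F, and 95% intervals used the moderated degrees of freedom. The fit was tested on simulated data, with 2 draws per comparison in which 200 genes were changed from a level shared by all groups. These draws held no rise as large as that of this gene and no libraries that deviated together. They therefore do not show how the fits perform under those conditions. The exact Poisson intervals and the floor of 3 counts cover counting error only, since PCR copies cannot be told from separate molecules here. The 95% intervals of the fits also carry the spread between libraries.

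The gene, the lists and the tests were chosen with earlier results of these data known. Gene lists and cell type markers planned by symbol were not used, as 0 of 32883 IDs matched a name. The rule for other named genes took the next gene by log2 fold change in each region and the 5 nearest profiles; without symbols, only 2 of these 5 are named. Alternatives were DESeq2 1.42.0, its size factors, other filters, a replicate block, limma-voom 3.58.1 with quality weights, robust=FALSE, all 20 libraries in one fit and leaving out each library. Leaving out the libraries that stood apart and the ratio of means were added after seeing the data. Same-numbered dorsal and ventral controls deviated from their group means together in all 5 numbers (correlation across 14087 genes 0.200 to 0.393). The numbers were therefore taken to pair the controls. They come from the titles, which do not state what a number shares. The main fits do not use this pairing. Figures were drawn with matplotlib 3.10.9.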

Additional observations from a re-analysis of the deposited data

Results flagged for a closer look

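Ventral control 3 lay apart from its group in the level of ENSRNOG00000011824, at 2.20 CPM, with the other ventral controls between 0.611 and 1.07 CPM. Its gap to the next library was 0.712 of the range of the group, just above the limit for 5 values. For normally distributed values, chance alone exceeds that limit in about 1 in 20 groups, and 4 groups were searched. The rule was applied to CPM. On log2 CPM this library stood at 1.14 and the other ventral controls between -0.711 and 0.0939, a gap under the limit, so the flag depends on the scale. The value rests on 14 counts, with an exact Poisson 95% interval of 1.20 to 3.69 CPM. Without this library the ventral log2 fold change was 8.24, the regional log2 difference in controls was 0.40 (edgeR adjusted p = 0.641) and the interaction was 2.37 (edgeR adjusted p = 0.296). The origin of the value was not tested.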

How the results depend on the processing

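For ENSRNOG00000011824, the regional difference after preconditioning stayed under the threshold in all 20 alternatives run, with log2 differences from 2.58 to 2.92. The differences in controls (19 alternatives) and between the rises (28) stayed positive and above the threshold. The alternatives for the regions after preconditioning and in controls include the exact permutation test, whose p is unadjusted. Adjusted p ran from 0.111 to 0.641 in controls and from 0.110 to 0.688 between the rises. The smallest of these were those of the replicate block for the controls and of DESeq2 for the interaction. Leaving out 1 library at a time gave 5.58 to 6.31 for the dorsal and 7.84 to 8.24 for the ventral log2 fold change, 0.39 to 1.07 for the control difference and 1.70 to 2.44 for the interaction. The filter of a mean count of at least 20 removed the gene from the comparison of controls, and the alternatives for gene lists were not run. With the replicate number as a block, the log2 values were 6.01 (dorsal rise), 7.91 (ventral rise), 2.75 (regions after preconditioning), 0.96 (controls, edgeR adjusted p = 0.111) and 1.81 (interaction, edgeR adjusted p = 0.169). The block changed no call for this gene. For the rises it joins control and treated libraries by number, although the labels do not say that a number shares anything across treatments. Outside controls the same-numbered correlations of deviations ran from -0.222 to 0.0794 for the dorsal, -0.0135 to 0.389 for the ventral treatment comparison and 0.0376 to 0.368 between preconditioned regions, where all 5 were positive and 4 of 5 libraries correlated best with their own number; the permutation test given for that comparison takes the libraries as unpaired.

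The number of genes called, the background for this gene, depended more on the method. In the dorsal comparison it was 37, against 169 with DESeq2, 172 with limma-voom, 97 with all 20 libraries in one fit, 105 without the libraries that stood apart, and 15 to 50 with 1 library left out. In the ventral comparison it was 672, against 1085 with DESeq2, 1261 with the block, 1508 with limma-voom and 432 to 1029 with 1 library left out. For the interaction it was 11, against 55 with DESeq2, 62 with the block, 100 with limma-voom, 17 without the libraries that stood apart and 6 to 20 with 1 library left out. The cause was not tested. Depth limits the control levels, which rest on 2 to 24 counts a library.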
